A study of Mus musculus with 8 samples.

Results

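Chromatin accessibility was described at the genes of the transforming growth factor beta (TGF-beta) and bone morphogenetic protein (BMP) pathway in 4 sorted populations of mouse medullary thymic epithelial cells (mTEC). Members were chosen by gene name from the authors' merged table of ATAC-seq peaks: every peak whose nearest gene was a Bmp, Gdf, Tgfb or Inhb ligand, an Acvr, Bmpr or Tgfbr receptor, a Smad, Id1 to Id4, or one of the binding proteins Fst, Fstl1, Fstl3, Nog, Grem1 and Chrd. This gave 362 of 74090 merged peaks and 53 of 18215 gene names, namely 22 ligands, 11 receptors, 8 Smads, 5 antagonists and binding proteins, 4 Id genes and 3 genes found by the name pattern whose products are not ligands, receptors or Smads (Bmp1, Bmp2k and Tgfb1i1). No peak was assigned to Grem1, and Grem1 has no values here.

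ATAC-seq inserts sequencing adapters into open chromatin, so the number of read ends in a region is a measure of how accessible that region is. Thymic epithelial cells of C57BL/6 mice were sorted as CD45 negative and Epcam positive, and 4 gates were used within them. The mTEC-I gate took MHCII low Itgb4+ cells, the mTEC-II gate MHCII high cells, the mTEC-III gate Ly6D+ cells and the mTEC-IV gate MHCII low cells that were Itgb4- and L1cam+. Each population had 2 libraries, and the study set out to map the accessible chromatin of each. Per the labels the sorts enriched for each population, the mTEC-II and mTEC-III gates name no shared marker that would keep one out of the other, and the age, sex and number of animals behind a library are not given. Nothing says that replicates came from separate animals, and the p-values below speak only for the spread of these libraries, which may be technical.

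In this pathway a dimeric ligand brings together type I and type II receptor kinases on the cell surface. The activated type I receptor phosphorylates receptor-regulated Smads, which join Smad4 and enter the nucleus. BMP ligands act mainly through Smad1, Smad5 and Smad9, and TGF-beta and activins through Smad2 and Smad3. Smad6 and Smad7 inhibit the pathway, follistatin, noggin and chordin bind ligands outside the cell, and Id1 to Id4, which encode inhibitors of basic helix-loop-helix factors, are classical BMP target genes. In the thymus, BMP signalling has been linked to the maintenance of the epithelium, and TGF-beta signalling in epithelial cells has been linked to the size of the medullary compartment.

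Promoters with a called peak just upstream of the start site are shown first, because the printed window then holds the centre of a peak that differed between populations. Other called promoter peaks lay outside such a window or at genes not printed. Of the 53 genes, 37 had an entry among the promoter sequences of RefSeq (GRCm38.p6), and 6 had a called promoter peak centred within 250 bases upstream of a start. Of these 6, 4 are printed, each with a single promoter entry. The sequences run from 250 bases upstream up to the start, 5′ to 3′ on the strand of the gene. The peaks are in mm9 coordinates and the sequences in GRCm38.p6, and the match rests on the gene and the distance to its start, which was not compared between builds. The sequences are Acvr1b at chr15:101173822-101174071 (plus strand), Fstl1 at chr16:37776805-37777054 (plus strand), Id3 at chr4:136143572-136143821 (plus strand) and Smad6 at chr9:64022060-64022309 (minus strand). Capitals mark matches to CAGAC, a core bound by Smad3 and Smad4, on either strand.
Acvr1b: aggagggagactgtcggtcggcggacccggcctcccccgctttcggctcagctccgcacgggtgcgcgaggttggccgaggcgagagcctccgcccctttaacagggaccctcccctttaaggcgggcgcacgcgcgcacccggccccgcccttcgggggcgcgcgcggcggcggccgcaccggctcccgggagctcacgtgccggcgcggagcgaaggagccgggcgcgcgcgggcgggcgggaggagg
Fstl1: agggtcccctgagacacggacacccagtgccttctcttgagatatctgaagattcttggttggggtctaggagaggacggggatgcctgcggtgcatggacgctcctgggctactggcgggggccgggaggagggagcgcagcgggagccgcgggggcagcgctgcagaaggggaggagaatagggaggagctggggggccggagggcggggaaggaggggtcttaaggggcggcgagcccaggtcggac
Id3: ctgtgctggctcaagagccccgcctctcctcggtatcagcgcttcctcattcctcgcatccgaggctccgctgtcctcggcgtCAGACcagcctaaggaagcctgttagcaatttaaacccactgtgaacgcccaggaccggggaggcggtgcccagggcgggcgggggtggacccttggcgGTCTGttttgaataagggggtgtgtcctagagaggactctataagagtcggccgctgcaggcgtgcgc
Smad6: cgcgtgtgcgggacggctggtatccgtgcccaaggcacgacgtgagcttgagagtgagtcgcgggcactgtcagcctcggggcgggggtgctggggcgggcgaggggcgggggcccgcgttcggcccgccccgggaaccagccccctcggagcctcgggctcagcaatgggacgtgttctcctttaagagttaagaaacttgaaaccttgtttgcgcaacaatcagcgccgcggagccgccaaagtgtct

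CAGAC occurred in 2 places in the Id3 window and in none of the other 3 windows, and 42.2% of the 32851 RefSeq promoters hold it in the same length. GGCGCC, a core of BMP response elements (9.59% of promoters), TGANTCA, bound by AP-1 factors (6.75%), and TGCAAAT, the octamer core (3.56%), had no match in any of the 4 windows on either strand, so no matches of different motifs overlapped. Of the bases, 78.8% were G or C in the Acvr1b window, 68.0% in Fstl1, 62.8% in Id3 and 66.8% in Smad6, against a median of 52.4% over all promoters. Accessibility of these 4 promoters is given below with each gene.

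Values below are the authors' tags per 10000000 of each library's total, scaled further by TMM factors and called TMM-scaled tags, and where replicates are listed the first value is replicate 1. Libraries held 3606436 to 10374623 total tags, and 1 read end was worth 0.482 to 1.39 tags per 10000000. The share of tags in merged peaks was 8.44% and 11.003% in the mTEC-III libraries and between 14.2% and 19.7% in the others, and the replicate correlation over peaks was lowest in mTEC-III. As a check of the sort, Itgb4 was highest in mTEC-I (182 and 152, limma adjusted p = 8.0e-04) and H2-Ab1 was lowest in mTEC-IV (145 and 138, limma adjusted p = 7.6e-08). In mTEC-I, also an MHCII low gate, H2-Ab1 had 264.5 and 249.996 and was not called against the other 3 (0.02, limma adjusted p = 0.93). By pairs it was lower there than in mTEC-II (-0.38) and mTEC-III (-0.43). Epcam, a marker of the sort, was called lower in mTEC-I (-0.284) and mTEC-II (-0.258) and higher in mTEC-IV (0.47). Krt5 (2.395) and Foxn1 (1.075) were higher in mTEC-I (18.3% of all genes were) and lower in mTEC-IV. Aire was lower in mTEC-I (-1.175) and higher in mTEC-II (1.162), and Krt8 was not called in any population. L1cam and Ly6d, summed over all their peaks, were not called in any population, with L1cam at 12.3 and 14.1 in mTEC-IV, against mTEC-I at 25.7 and 11.5, mTEC-II at 8.08 and 7.01 and mTEC-III at 10.4 and 11.4. Accessibility is not expression, and in sorted bulk samples fewer cells with an open region and less opening per cell cannot be told apart.

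Member peaks lay far from their genes. Their median distance to the nearest start site was 33.8 kb, against 15.5 kb over all merged peaks, and 79 of 362 lay more than 100 kb away. Promoter peaks, within 1 kb of a start, made up 67 of the 362 (18.5%, against 24.1% of all merged peaks), 155 peaks were intergenic and 135 were intronic. Of the 207 peaks inside a gene, 39 lay inside a gene other than the one they were assigned to, among them 13 Tgfb3 peaks inside Ttll5, 7 Bmpr1b peaks inside Unc5c and 4 Tgfbr2 peaks inside Gadl1, so which gene such a peak acts on was not tested. The 53 genes had a median of 4 peaks, against 3 over all genes tested, and Acvr2a and Tgfbr2 had the most with 21 each. In the authors' own peak lists, mTEC-I libraries held 61.3% and 55.0% of the 362, against 59.1% and 52.5% of all merged peaks. The lists of mTEC-IV held 32.0% and 38.4% of them (39.9% and 48.1% of all), those of mTEC-II 76 and 99 of the 362 (25.3% and 37.3% of all) and those of mTEC-III 36 and 64 (14.2% and 26.3%). Of the 362, 130 were in 1 list and 21 in all 8.

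Of the 4 populations, mTEC-I had the most genes of the pathway with higher accessibility. Summed over all peaks of a gene, 23 of 53 genes were higher in mTEC-I than in the mean of the other 3 populations and 2 were lower. Over all 17679 genes tested, 18.3% were higher and 16.8% lower in that comparison. The median log2 difference was 0.29 over the 53 genes and -0.02 over all genes. All 4 Id genes, 7 of 11 receptors, 4 of 8 Smads and 4 of 22 ligands were among the 23, as were 2 of 5 antagonists, Fst and Fstl1, and Bmp2k and Tgfb1i1. Both mTEC-I libraries lay above the other 6 for 18 of the 23, a separation that a call on the same libraries favours. The share of such genes among all genes called was not counted. By pairs, 30.2% of the 53 genes were higher in mTEC-I than in mTEC-II (12.8% of all genes were). Against mTEC-III 26.4% were higher (13.5% of all genes) and against mTEC-IV 39.6% (19.1%). Of the 23, which were chosen on the same libraries, 11, 13 and 20 passed these pairs. Acvr1, Bmpr1b, Fst, Fstl1, Gdf5, Id1, Id4 and Smad6 were higher in all 3 pairs. With 1 mTEC-I library left out, 13 genes were called higher without replicate 1 and 12 without replicate 2, with 9.23% and 9.06% of all genes. Under the authors' scaling to total tags, 32 were higher and 0 lower, beside 39.7% and 4.84% of all genes, and the median of all genes then stood at 0.47.

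In mTEC-IV 15 genes were lower and 7 higher, against 16.6% and 14.0% of all genes, and the median was -0.15 against 0.02 over all genes. By pairs, 39.6% of the 53 genes were lower in mTEC-IV than in mTEC-I (19.1% of all genes were). Against mTEC-II 13.2% were lower (12.9% of all genes) and against mTEC-III 9.43% (11.9%). Higher in mTEC-IV were 7.55% against mTEC-I (16.7% of all genes), 15.1% against mTEC-II (11.6%) and 7.55% against mTEC-III (9.67%). Of the 15, which were chosen on the same libraries, 13, 7 and 5 passed these pairs, and of the 7, 2, 6 and 4 did. Id3, Smad3 and Tgfbr1 were lower than in each of the other 3 populations, and Bmp6 was higher than in each. Without mTEC-IV replicate 1 there were 10 lower and 3 higher (9.6% and 5.57% of all genes). Without replicate 2 there were 7 lower and 4 higher (11.5% and 6.54%). The share of calls that were higher was 31.8%, and under the authors' scaling, with 7 higher and 7 lower (13.8% and 9.48% of all genes), it was 50.0%. In mTEC-II 2 genes were higher and 7 lower (5.29% of all genes in each direction), and in mTEC-III 0 were higher by limma or edgeR and 7 lower (4.03% and 3.35% of all genes, with 12 members at an unadjusted p under 0.05). Between mTEC-II and mTEC-III no member gene was called (0.532% of all genes were), while all 7 genes lower in mTEC-III were also lower than in mTEC-I and 2 of them than in mTEC-IV. The mTEC-III count rests on the scaling and on single libraries: under the authors' scaling, which put the median of all genes at -0.82 in mTEC-III, 44 were lower, as were 75.5% of all genes, and without mTEC-III replicate 1 there was 1. The mTEC-II calls were 0 higher and 6 lower without either mTEC-I library, and 3 lower under the authors' scaling.

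**Figure D1:**
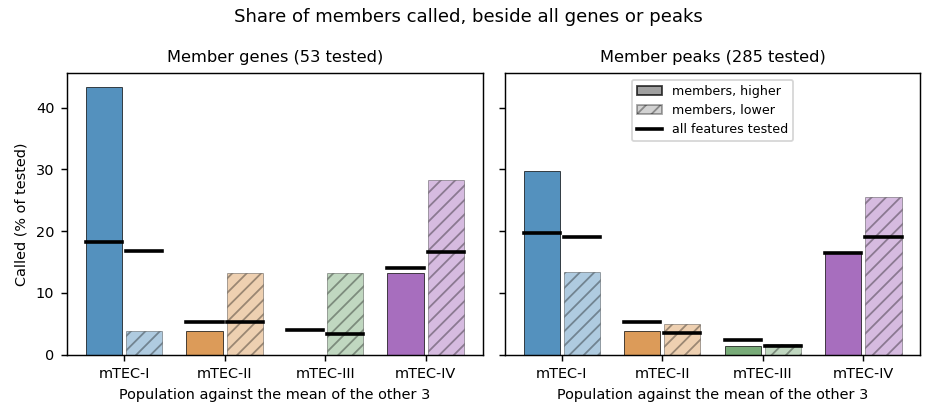
Percent of tested member genes (left, 53) and member peaks (right, 285) called higher (solid) or lower (hatched) in each population against the mean of the other 3, at a limma adjusted p under 0.05; black lines give the percent over all genes or peaks tested. In mTEC-I 43.4% of member genes were higher and 3.77% lower, and in mTEC-IV 28.3% were lower and 13.2% higher.

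**Figure D2:**
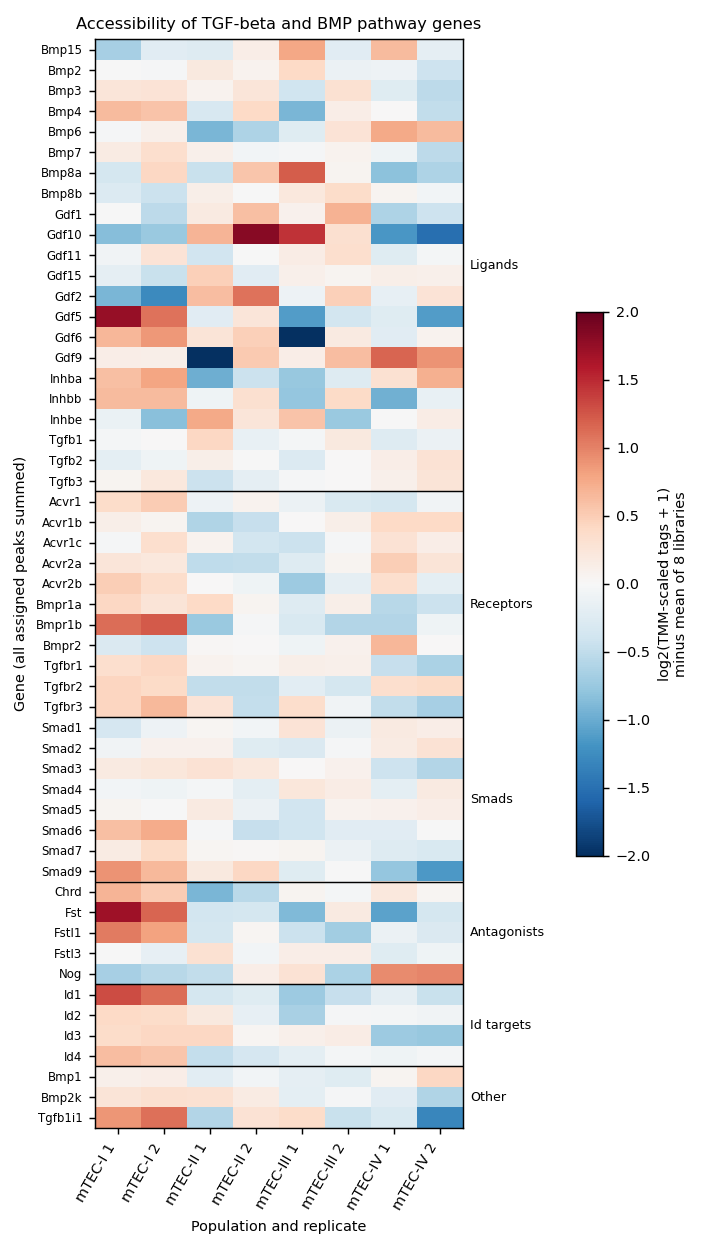
Summed accessibility of each of the 53 genes (rows, grouped by role) in each of the 8 libraries (columns), as log2(TMM-scaled tags + 1) minus the mean of the 8 libraries for that gene; red is above that mean and blue below, with the colour limits at 2 on either side. The 4 Id genes and 9 of the 11 receptors are above that mean in both mTEC-I libraries.

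Of the 22 ligand genes, 4 were higher in mTEC-I (Bmp7, Gdf5, Inhba and Inhbb) and 1 lower (Gdf2); of all genes 18.3% were higher. Gdf5 encodes a ligand that signals chiefly through Bmpr1b. Its accessibility was 57.2 and 35.7 in mTEC-I, against mTEC-II at 13.8 and 19.5, mTEC-III at 6.96 and 12.4 and mTEC-IV at 13.7 and 7.03. The log2 difference was 1.89 ± 0.37 (SE, limma adjusted p = 5.7e-04), and both mTEC-I libraries lay above the other 6. Inhba, whose product forms activin A, was most open in 2 populations, with 140.1 and 159 in mTEC-I and 114 and 151 in mTEC-IV, against 46.2 and 67.8 for mTEC-II and 54.012 and 76.6 for mTEC-III. The 4 libraries of mTEC-I and mTEC-IV lay above the 4 of mTEC-II and mTEC-III, and Inhba was called in all 4 comparisons, at 0.93 ± 0.18 (SE, limma adjusted p = 4.2e-04) in mTEC-I, -0.94 for mTEC-II, -0.67 for mTEC-III and 0.68 for mTEC-IV. Single peaks of Inhba differed between mTEC-I and mTEC-IV. A peak 501.2 kb downstream (chr13:16607426-16607615) had 19.4 and 26.8 in mTEC-IV, against mTEC-I at 0 and 0.533, mTEC-II at 0 and 0 and mTEC-III at 0 and 6.18. Another peak, 84.5 kb upstream (chr13:16021733-16021970), had 0 and 0 in mTEC-IV, against mTEC-I at 20.1 and 24.029, mTEC-II at 9.32 and 7.79 and mTEC-III at 3.36 and 15.4. The second was at least 14.7-fold below the average of the other 6 libraries in mTEC-IV, taking 3 read ends over both mTEC-IV libraries as the limit. Peaks within 10 kb of the start alone gave no call for Inhba in mTEC-I (-0.03).

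Of the ligand genes called higher in mTEC-IV, Bmp6 and Inhba, Bmp6 had the larger difference. It had 109 and 99.4 in mTEC-IV, against mTEC-I at 62.6 and 68.7, mTEC-II at 33.5 and 41.3 and mTEC-III at 53.994 and 77.6. Both mTEC-IV libraries lay above the other 6 (log2 difference 0.93 ± 0.19 SE, limma adjusted p = 6.1e-04), and in mTEC-II both lay below the other 6 (-1.01 ± 0.19 SE, limma adjusted p = 0.0019). The mTEC-IV difference lay in distal peaks: within 10 kb of the start it was -0.065 and not called, and a promoter peak 0.649 kb upstream was higher in mTEC-I, with 53.4 and 58.2 in mTEC-I, against mTEC-II at 25.6 and 27.2, mTEC-III at 26.8 and 39.1 and mTEC-IV at 48.8 and 29.4 (0.79 ± 0.24 SE, limma adjusted p = 0.018). Gdf10, which encodes BMP3b, had low and scattered values of 3.43 and 2.51 in mTEC-IV, against mTEC-I at 4.51 and 4.95, mTEC-II at 14.999 and 34.3 and mTEC-III at 26.1 and 11.4. It was lower in mTEC-IV, at -1.78 ± 0.47 (SE, limma adjusted p = 0.0057) and higher in mTEC-II by 1.67 ± 0.47 (SE, limma adjusted p = 0.026), and its mTEC-II and mTEC-III libraries overlapped. Gdf2, which encodes BMP9, was low in all libraries, at 4.51 and 3.3 in mTEC-I, against mTEC-II at 14.999 and 21.1, mTEC-III at 8.71 and 13.4 and mTEC-IV at 8.23 and 11.5, with both mTEC-I libraries below the other 6 (-1.46 ± 0.43 SE, limma adjusted p = 0.011). With either mTEC-I library left out that call was lost (-1.63 and -1.27).

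Inhbb, which encodes another activin subunit, had 70.3 and 70.9 in mTEC-I, against mTEC-II at 42.7 and 56.9, mTEC-III at 26.1 and 58.964 and mTEC-IV at 22.6 and 40.7, and was higher in mTEC-I (0.84 ± 0.28 SE, limma adjusted p = 0.022) and lower in mTEC-IV (-0.74 ± 0.28 SE, limma adjusted p = 0.047). Bmp7 was higher in mTEC-I by 0.34 and lower in mTEC-IV, at -0.41 on the log2 scale. Tgfb3 was lower in mTEC-II (-0.40 ± 0.12 SE, limma adjusted p = 0.034), with 119 and 142 in mTEC-II, against mTEC-I at 167 and 185, mTEC-III at 157 and 160.4 and mTEC-IV at 172 and 192. The mTEC-II libraries were the lowest 2 of the 8, by a small margin. Inside Tgfb3's neighbour Ttll5, 29.8 kb from the Tgfb3 start, 1 peak (chr12:87390100-87390266) was seen almost only in mTEC-IV, with 20.8 and 19.9 in mTEC-IV, against mTEC-I at 0 and 0, mTEC-II at 0 and 0 and mTEC-III at 0 and 1.02. Tgfb2 was not called as a sum, and its intronic peaks went both ways: the one 71.3 kb into the gene (chr1:188458547-188458675) had 33.8 and 37.3 in mTEC-IV, against mTEC-I at 0 and 0, mTEC-II at 0 and 1.56 and mTEC-III at 6.72 and 6.18, a log2 difference of 3.998 ± 0.55 (SE, limma adjusted p = 7.8e-05) in mTEC-IV. Another, 47.2 kb in (chr1:188482572-188482712), was highest in mTEC-II at 19.8 and 11.7 in mTEC-II, against mTEC-I at 3.06 and 6.41, mTEC-III at 6.72 and 2.06 and mTEC-IV at 1.43 and 1.58 (2.001 ± 0.56 SE, limma adjusted p = 0.036).

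Other ligand peaks had differences near the start. An Inhbe promoter peak 0.621 kb upstream had 17.5 and 12.5 in mTEC-II, against mTEC-I at 2.19 and 1.07, mTEC-III at 6.72 and 7.201 and mTEC-IV at 1.43 and 3.15. Both mTEC-II libraries lay above the other 6 (1.97 ± 0.53 SE, limma adjusted p = 0.03), while Inhbe as a sum was not called. Both Gdf15 peaks called in mTEC-I were lower there. The nearer, 5.28 kb upstream, had 0 and 0 in mTEC-I, against mTEC-II at 3.497 and 4.67, mTEC-III at 3.36 and 5.14 and mTEC-IV at 9.34 and 15.7, so mTEC-I was at least 9.64-fold below the average of the other 6 libraries. The farther, 10.4 kb upstream, had 0 and 2.67 in mTEC-I, against mTEC-II at 9.32 and 7.003, mTEC-III at 3.36 and 9.26 and mTEC-IV at 24.4 and 14.7 (-2.48 ± 0.59 SE, limma adjusted p = 0.004). Gdf15 encodes a stress-induced ligand and as a sum it was not called in mTEC-I (-0.42, limma adjusted p = 0.065). Bmp2 was lower in mTEC-IV, at -0.35 ± 0.13 (SE, limma adjusted p = 0.047), a call lost under the authors' scaling. The remaining 13 ligand genes were not called in any population: Bmp3, Bmp4, Bmp8a, Bmp8b, Bmp15, Gdf1, Gdf6, Gdf9, Gdf11, Gdf15, Inhbe, Tgfb1 and Tgfb2. Gdf1 shares its locus with Cers1, and reads cannot be split between those genes.

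Receptor genes were often higher in mTEC-I: 7 of 11 were higher (18.3% of all genes were) and the other 4 were not called. They were the type I receptors Acvr1, Bmpr1a, Bmpr1b and Tgfbr1, the type II receptors Acvr2b and Tgfbr2, and Tgfbr3, which encodes the co-receptor betaglycan. In mTEC-IV 3 were higher (Acvr1b, Acvr2a and Tgfbr2) and 3 lower (Bmpr1a, Tgfbr1 and Tgfbr3), where 14.0% and 16.6% of all genes were. Bmpr1b, a type I BMP receptor, had 209 and 225 in mTEC-I, against mTEC-II at 56.5 and 93.5, mTEC-III at 76.6 and 63.1 and mTEC-IV at 63.1 and 89.3. Both mTEC-I libraries lay well above the other 6, and the log2 difference was 1.57 ± 0.18 (SE, limma adjusted p = 2.0e-06). In mTEC-III the difference was -0.60 ± 0.18 (SE, limma adjusted p = 0.048), and the mTEC-III values overlapped those of mTEC-II and mTEC-IV. A peak in an intron, 38.1 kb from its start (chr3:141793999-141794247), had 45.5 and 53.4 in mTEC-I, against mTEC-II at 8.15 and 4.67, mTEC-III at 0 and 2.06 and mTEC-IV at 2.88 and 0. This intronic peak was higher in mTEC-I by 4.11 ± 0.62 (SE, limma adjusted p = 2.9e-04). The promoter peak was higher too (1.77 ± 0.50 SE, limma adjusted p = 0.011).

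Tgfbr1, the type I receptor for TGF-beta, had 181 and 160.1 in mTEC-IV, against mTEC-I at 315 and 334, mTEC-II at 263 and 257 and mTEC-III at 272 and 267. Both mTEC-IV libraries lay below the other 6 (-0.73 ± 0.10 SE, limma adjusted p = 8.1e-06), and both mTEC-I libraries above them (0.50 ± 0.10 SE, limma adjusted p = 4.4e-04). An intergenic peak 16.8 kb upstream (chr4:47349199-47349437) had 4.31 and 0 in mTEC-IV, against mTEC-I at 22.8 and 22.4, mTEC-II at 15.1 and 36.6 and mTEC-III at 13.4 and 13.4, a log2 difference of -3.14 ± 0.54 (SE, limma adjusted p = 3.4e-04). Tgfbr3 followed the same order, with 90.5 and 80.3 in mTEC-IV, against mTEC-I at 172 and 200.006, mTEC-II at 155 and 91.2 and mTEC-III at 162 and 121, at -0.77 ± 0.17 (SE, limma adjusted p = 0.0014) in mTEC-IV and 0.72 ± 0.17 (SE, limma adjusted p = 0.0023) in mTEC-I. Its mTEC-II replicate 2 was near the mTEC-IV values. Bmpr1a was lower in mTEC-IV, at -0.65 ± 0.14 (SE, limma adjusted p = 9.8e-04). Its peak 6.13 kb upstream (chr14:35321764-35321951) had 1.43 and 0.523 in mTEC-IV, against mTEC-I at 14.016 and 15.5, mTEC-II at 31.5 and 21.02 and mTEC-III at 6.72 and 21.6. Another, overlapping an exon 54.8 kb from the start, had 6.47 and 0 in mTEC-IV, against mTEC-I at 14.9 and 19.2, mTEC-II at 24.5 and 26.5 and mTEC-III at 20.1 and 27.8. In both peaks the 2 mTEC-IV libraries were the lowest of the 8.

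Tgfbr2, the type II receptor for TGF-beta, was open in mTEC-I and in mTEC-IV alike when its 21 peaks were summed. It had 288 and 280.2 in mTEC-I, against mTEC-II at 152 and 152, mTEC-III at 185 and 167 and mTEC-IV at 269.5 and 279, and the 4 libraries of mTEC-I and mTEC-IV lay above the other 4. It was higher in mTEC-I by 0.55 ± 0.10 (SE, limma adjusted p = 2.8e-04) and in mTEC-IV by 0.48 ± 0.10 (SE, limma adjusted p = 9.8e-04), and lower in mTEC-II, at -0.65 ± 0.10 (SE, limma adjusted p = 6.3e-04). Between mTEC-I and mTEC-IV the sums differed by 0.05 ± 0.12 (SE, limma adjusted p = 0.78), yet 12 of its 17 tested peaks were called between them, 6 higher in mTEC-I and 6 lower. A peak 275.7 kb upstream (chr9:116360052-116360232) had 53.2 and 38.8 in mTEC-IV, against mTEC-I at 0 and 1.07, mTEC-II at 0 and 3.12 and mTEC-III at 0 and 10.3. Inside Gadl1, a peak at 130.8 kb (chr9:115953647-115953775) had 38.1 and 29.4 in mTEC-IV, against mTEC-I at 0 and 0, mTEC-II at 2.33 and 0 and mTEC-III at 1.67 and 8.24. Its neighbour at 130.6 kb (chr9:115953782-115953900) had 20.8 and 29.4 in mTEC-IV, against mTEC-I at 0 and 0, mTEC-II at 0 and 0 and mTEC-III at 6.72 and 7.201. These 3 peaks were near 0 in mTEC-I, and rose in mTEC-IV by 4.44, 4.05 and 3.69 on the log2 scale (limma adjusted p of 4.2e-04, 1.7e-04 and 9.8e-05).

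Other Tgfbr2 peaks followed other orders. The promoter peak, 0.101 kb inside the gene, had 40.3 and 37.9 in mTEC-I, against mTEC-II at 12.8 and 14.016, mTEC-III at 8.39 and 16.5 and mTEC-IV at 19.4 and 23.1, so both mTEC-I libraries stood above the other 6 (1.33 ± 0.31 SE, limma adjusted p = 0.0039). The peak 106.5 kb upstream had 0 and 0 in mTEC-III, against mTEC-I at 11.8 and 10.1, mTEC-II at 3.497 and 3.89 and mTEC-IV at 1.43 and 1.04. It was called lower in mTEC-III (limma adjusted p = 0.027), a call that edgeR on the recovered read ends did not make. The mTEC-IV values lay under the limit from 3 read ends in mTEC-III (1.91), so these populations cannot be told apart at this peak. At 121.4 kb, inside Gadl1, values were 0 and 0 in mTEC-I, against mTEC-II at 2.33 and 1.56, mTEC-III at 3.36 and 5.14 and mTEC-IV at 12.2 and 15.2. At this peak mTEC-I was at least 9.19-fold below their average, most of which came from mTEC-IV. Values in mTEC-II and mTEC-III were low but above the mTEC-I limit of 0.722. That limit does not cover counting error in mTEC-II and mTEC-III, whose values rest on few read ends. Restricted to peaks within 10 kb of the start, Tgfbr2 was no longer called in mTEC-IV (0.01).

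Among activin receptors, Acvr1b, a type I receptor, had 66.9 and 74.1 in mTEC-II, against mTEC-I at 111 and 106, mTEC-III at 103 and 111 and mTEC-IV at 135 and 135. The log2 difference was -0.71 ± 0.13 (SE, limma adjusted p = 0.0022) in mTEC-II and 0.53 ± 0.13 (SE, limma adjusted p = 0.0048) in mTEC-IV. Its promoter peak, in the window printed above, had 54.8 and 50.6 in mTEC-II, against mTEC-I at 81.9 and 81.2, mTEC-III at 72.2 and 80.3 and mTEC-IV at 81.9 and 97.1, so both mTEC-II libraries lay just below the other 6 (-0.63 ± 0.16 SE, limma adjusted p = 0.027). Both mTEC-II calls were lost under the authors' scaling. That of the promoter peak was also lost without either mTEC-II library (-0.69 and -0.63), without either mTEC-I library and without mTEC-IV replicate 2. It held in 3 of the 8 fits with 1 library left out. The type II receptor gene Acvr2a had 133 and 133 in mTEC-II, against mTEC-I at 222 and 217, mTEC-III at 157 and 196 and mTEC-IV at 266 and 226. It differed by -0.66 ± 0.11 (SE, limma adjusted p = 0.0013) in mTEC-II and 0.51 ± 0.11 (SE, limma adjusted p = 0.0018) in mTEC-IV. Within 10 kb of its start the mTEC-II difference was 0.06 and not called, so the difference lies in distal peaks. Its peaks lay up to 1389.2 kb from the start. A peak 1389.0 kb upstream had 12.7 and 25.6 in mTEC-I, against mTEC-II at 0 and 4.67, mTEC-III at 0 and 5.14 and mTEC-IV at 0.717 and 0 (3.27 ± 0.76 SE, limma adjusted p = 0.0035). The one 255.3 kb upstream (chr2:48414244-48414384) had 11.8 and 20.8 in mTEC-I, against mTEC-II at 0 and 0, mTEC-III at 0 and 4.12 and mTEC-IV at 0 and 0.523 (3.57 ± 0.64 SE, limma adjusted p = 7.7e-04). In contrast, the peak 372.5 kb upstream (chr2:48297032-48297204) had 3.5 and 0 in mTEC-I, against mTEC-II at 18.6 and 14.016, mTEC-III at 15.1 and 22.6 and mTEC-IV at 39.5 and 25.2 (-3.39 ± 0.50 SE, limma adjusted p = 2.5e-04). The one 189.9 kb upstream had 0 and 0.774 in mTEC-II, against mTEC-I at 4.82 and 5.34, mTEC-III at 6.72 and 7.201 and mTEC-IV at 24.4 and 24.7 (-3.01 ± 0.50 SE, limma adjusted p = 0.0061). Single peaks of Acvr2a were thus highest in mTEC-I or in mTEC-IV. Acvr1 and Acvr2b were higher in mTEC-I by 0.58 and 0.56, and Acvr1c and Bmpr2 were not called against the other 3 in any population.

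Among the 8 Smads with peaks, mTEC-I was higher at both inhibitory Smads, Smad6 and Smad7, at Smad3 and at Smad9, and lower at Smad1. Of all genes, 18.3% were higher and 16.8% lower there. Smad6 had 343 and 379 in mTEC-I, against mTEC-II at 224 and 164, mTEC-III at 171 and 192 and mTEC-IV at 194 and 225. Both mTEC-I libraries lay above the other 6 (0.89 ± 0.12 SE, limma adjusted p = 1.0e-05), and no pair of the other 3 populations was called. Its promoter peak 0.035 kb upstream, in the printed window, had 68.8 and 77.961 in mTEC-I, against mTEC-II at 57.1 and 38.9, mTEC-III at 35.2 and 49.4 and mTEC-IV at 22.3 and 23.6, higher in mTEC-I (1.02 ± 0.22 SE, limma adjusted p = 0.0024) and lower in mTEC-IV (-1.16 ± 0.22 SE, limma adjusted p = 6.6e-04). A downstream peak 94.2 kb away (chr9:63775509-63775748) was lowest in mTEC-II, with 3.497 and 6.23 in mTEC-II, against mTEC-I at 11.4 and 21.9, mTEC-III at 16.8 and 8.24 and mTEC-IV at 18.7 and 20.995 (-1.53 ± 0.42 SE, limma adjusted p = 0.035). Smad7 was higher in mTEC-I by 0.37 ± 0.10 (SE, limma adjusted p = 0.007) and lower in mTEC-IV, at -0.37 ± 0.10 (SE, limma adjusted p = 0.0067).

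Smad9, a receptor-regulated Smad of the BMP branch, had 54.971 and 46.2 in mTEC-I, against mTEC-II at 33.5 and 38.99, mTEC-III at 24.4 and 28.968 and mTEC-IV at 16.5 and 12.5. The libraries were ordered from mTEC-I down to mTEC-IV with no overlap between neighbours, but no pair of neighbours was called (limma adjusted p of 0.31, 0.59 and 0.067). Against the other 3, Smad9 differed by 1.03 ± 0.26 (SE, limma adjusted p = 0.0043) in mTEC-I and -1.28 ± 0.26 (SE, limma adjusted p = 7.3e-04) in mTEC-IV. An intronic peak 17.7 kb from the start (chr3:54577149-54577315) had 0 and 0 in mTEC-IV, against mTEC-I at 23.7 and 20.8, mTEC-II at 13.988 and 17.1 and mTEC-III at 10.1 and 14.4. With no read end in either mTEC-IV library, it was at least 18.3-fold below the average of the other 6 libraries (limma adjusted p = 1.4e-05). Smad3, a receptor-regulated Smad of the TGF-beta and activin branch, had 206 and 183 in mTEC-IV, against mTEC-I at 309 and 321, mTEC-II at 335 and 316 and mTEC-III at 275 and 292, and both mTEC-IV libraries lay below the other 6 (-0.66 ± 0.10 SE, limma adjusted p = 2.0e-05). That call was lost within 10 kb of the start (-0.03) and under the authors' scaling (-0.52). Smad3 was also called higher in mTEC-I (0.27) and in mTEC-II (0.33). Its upstream peak at 13.8 kb (chr9:63619555-63619696) had 19.3 and 16.6 in mTEC-I, against mTEC-II at 0 and 3.89, mTEC-III at 0 and 0 and mTEC-IV at 2.88 and 0 (3.53 ± 0.68 SE, limma adjusted p = 0.0012). Its intronic peak at 51.5 kb had 69.9 and 61.5 in mTEC-II, against mTEC-I at 44.7 and 34.7, mTEC-III at 48.7 and 37.1 and mTEC-IV at 28.02 and 25.7 (0.86 ± 0.21 SE, limma adjusted p = 0.021).

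Smad1, Smad2, Smad4 and Smad5 differed little as sums. Smad1 was lower in mTEC-I, at -0.29 ± 0.11 (SE, limma adjusted p = 0.047), but the difference was 0.20, in the other direction, under the authors' scaling and 0.07 within 10 kb of the start. Its peak 36.9 kb from the start had 5.69 and 0.533 in mTEC-I, against mTEC-II at 18.6 and 12.5, mTEC-III at 21.8 and 23.7 and mTEC-IV at 30.9 and 22.041 (-2.77 ± 0.48 SE, limma adjusted p = 6.2e-04). Smad2 was higher in mTEC-IV by 0.30 ± 0.11 (SE, limma adjusted p = 0.045), a call lost under the authors' scaling. A Smad2 peak 3.37 kb from the start had 0 and 0 in mTEC-I, against mTEC-II at 22.1 and 12.5, mTEC-III at 11.7 and 15.4 and mTEC-IV at 6.47 and 1.04, at least 16-fold below the average of the other 6 libraries in mTEC-I. Smad4, the shared partner, and Smad5 were not called in any population.

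Extracellular antagonists differed by gene. Fst, which encodes follistatin, the activin-binding protein, had 109 and 74.7 in mTEC-I, against mTEC-II at 25.4 and 25.7, mTEC-III at 17.4 and 37.2 and mTEC-IV at 15.1 and 25.6. Both mTEC-I libraries were above the other 6, with a log2 difference of 1.90 ± 0.30 (SE, limma adjusted p = 5.6e-05). Its intergenic peak 66.7 kb upstream (chr13:115315778-115315969) had 20.1 and 18.2 in mTEC-I, against mTEC-II at 0 and 1.56, mTEC-III at 0 and 3.08 and mTEC-IV at 1.43 and 0 (3.55 ± 0.66 SE, limma adjusted p = 9.3e-04). Fstl1, a follistatin-like secreted protein, had 209.992 and 177 in mTEC-I, against mTEC-II at 79.6 and 104, mTEC-III at 74.9 and 62.1 and mTEC-IV at 93.3 and 83.3 (1.23 ± 0.15 SE, limma adjusted p = 4.0e-06). Its promoter peak in the printed window had 39.9 and 28.8 in mTEC-I, against mTEC-II at 5.83 and 11.7, mTEC-III at 8.39 and 2.06 and mTEC-IV at 0 and 5.77. That peak differed by 2.79 ± 0.66 (SE, limma adjusted p = 0.004) in mTEC-I and -2.21 ± 0.66 (SE, limma adjusted p = 0.015) in mTEC-IV. Nog, which encodes the BMP antagonist noggin, was the antagonist gene higher in mTEC-IV, with 39.1 and 40.1 in mTEC-IV, against mTEC-I at 12.2 and 13.2, mTEC-II at 13.8 and 21.8 and mTEC-III at 24.4 and 12.4. Both mTEC-IV libraries lay above the other 6 (1.28 ± 0.33 SE, limma adjusted p = 0.0054). Without mTEC-IV replicate 1 or 2 the Nog call was lost, at 1.30 and 1.26, and so it was within 10 kb of the start (0.30). Fstl3 and Chrd were not called in any population.

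All 4 Id genes were higher in mTEC-I (18.3% of all genes were). Id1 had 254 and 223 in mTEC-I, against mTEC-II at 79.6 and 85.7, mTEC-III at 60.967 and 73.5 and mTEC-IV at 89.8 and 74.3. Both mTEC-I libraries lay far above the other 6, and the log2 difference in mTEC-I was 1.62 ± 0.14 (SE, limma adjusted p = 1.2e-07). Its promoter peak had 70.954 and 57.7 in mTEC-I, against mTEC-II at 22.1 and 18.7, mTEC-III at 15.1 and 18.5 and mTEC-IV at 22.3 and 20.995 (1.67 ± 0.25 SE, limma adjusted p = 2.6e-04). A peak 3.2 kb downstream of the start (chr2:152565112-152565261) had 52.1 and 63.013 in mTEC-I, against mTEC-II at 13.988 and 12.5, mTEC-III at 0 and 1.02 and mTEC-IV at 11.5 and 7.87. It was higher in mTEC-I by 3.29 ± 0.44 (SE, limma adjusted p = 1.2e-04) and lower in mTEC-III, at -3.85 ± 0.44 (SE, limma adjusted p = 0.0025). It was the 1 member peak called between mTEC-II and mTEC-III (3.32 ± 0.54 SE, limma adjusted p = 0.049). The peak 1.07 kb upstream had 5.03 and 18.5 in mTEC-III, against mTEC-I at 77.962 and 68.9, mTEC-II at 33.8 and 32.7 and mTEC-IV at 22.986 and 19.4, and mTEC-III was lower (-1.82 ± 0.34 SE, limma adjusted p = 0.015). Farther upstream, at 9.38 kb, values were 0 and 1.04 in mTEC-IV, against mTEC-I at 15.3 and 14.955, mTEC-II at 8.15 and 8.56 and mTEC-III at 5.03 and 10.3, and mTEC-IV was lower (-2.91 ± 0.52 SE, limma adjusted p = 4.6e-04).

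Id3 separated mTEC-IV from the rest more clearly than mTEC-I. It had 159.8 and 156 in mTEC-IV, against mTEC-I at 341 and 353, mTEC-II at 351 and 269.8 and mTEC-III at 282 and 292. Both mTEC-IV libraries lay below the other 6 (-0.98 ± 0.10 SE, limma adjusted p = 5.4e-07), and in mTEC-I Id3 was higher by 0.53 ± 0.10 (SE, limma adjusted p = 5.7e-04) with values that overlapped those of mTEC-II. The promoter peak in the printed window had 57.5 and 45.1 in mTEC-IV, against mTEC-I at 99.9 and 99.3, mTEC-II at 103 and 88.8 and mTEC-III at 60.4 and 83.4 (-0.77 ± 0.18 SE, limma adjusted p = 0.0027). A peak 4.11 kb downstream of the start had 25.2 and 46.3 in mTEC-III, against mTEC-I at 84.97 and 108, mTEC-II at 80.4 and 49.8 and mTEC-IV at 56.031 and 48.3. At that peak mTEC-III was lower (-0.97 ± 0.24 SE, limma adjusted p = 0.035). Id4 had 232 and 222 in mTEC-I, against mTEC-II at 107 and 119, mTEC-III at 131 and 146 and mTEC-IV at 142 and 147, with both mTEC-I libraries above the other 6 (0.79 ± 0.12 SE, limma adjusted p = 3.1e-05) and a lower value in mTEC-II (-0.55 ± 0.12 SE, limma adjusted p = 0.0048). The Id4 peak 33.6 kb upstream had 24.5 and 30.4 in mTEC-II, against mTEC-I at 84.1 and 73.7, mTEC-III at 43.6 and 47.4 and mTEC-IV at 42.4 and 47.8 (-0.97 ± 0.20 SE, limma adjusted p = 0.011). Id2 was higher in mTEC-I, with 285 and 279.7 in mTEC-I, against mTEC-II at 247 and 193, mTEC-III at 138 and 212 and mTEC-IV at 209 and 205 (0.51 ± 0.13 SE, limma adjusted p = 0.0056), while its promoter peak was not called. In mTEC-III it was lower (-0.45), a call that edgeR did not make.

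Several of these calls were lost when 1 library was left out; the log2 difference without it is in parentheses. Without mTEC-I replicate 1, Acvr2b (0.50), Bmp2k (0.41), Bmp7 (0.43), Bmpr1a (0.37), Gdf2 (-1.63), Gdf5 (1.55), Id2 (0.50), Inhbb (0.85), Smad1 (-0.17), Smad3 (0.30), Smad9 (0.91) and Tgfb1i1 (1.44) were no longer called in mTEC-I. Without mTEC-I replicate 2, Acvr1 (0.51), Acvr2b (0.63), Bmp2k (0.35), Bmp7 (0.25), Bmpr1a (0.53), Gdf2 (-1.27), Id2 (0.53), Inhbb (0.84), Smad1 (-0.41), Smad3 (0.24), Smad7 (0.26), Tgfb1i1 (1.20) and Tgfbr3 (0.61) were no longer called in mTEC-I. Without mTEC-IV replicate 1, Acvr1b (0.53), Acvr2a (0.39), Bmp2 (-0.50), Fst (-0.59), Id1 (-0.56), Inhbb (-0.34), Nog (1.30), Smad2 (0.36) and Smad7 (-0.40) were no longer called in mTEC-IV. Without mTEC-IV replicate 2, Acvr1b (0.53), Bmp2 (-0.19), Bmp2k (-0.36), Bmp7 (-0.19), Gdf10 (-1.61), Id1 (-0.28), Inhba (0.48), Nog (1.26), Smad2 (0.24), Smad7 (-0.35), Tgfb1i1 (-0.57) and Tgfbr3 (-0.68) were no longer called in mTEC-IV. Without mTEC-II replicate 1, Id4 (-0.48), Inhba (-0.66), Smad3 (0.29) and Tgfb3 (-0.27) were no longer called in mTEC-II. Without mTEC-II replicate 2, Gdf10 (1.08) and Smad3 (0.34) were no longer called in mTEC-II. Without mTEC-III replicate 1, Bmpr1b (-0.74), Id1 (-0.67), Id2 (-0.14), Inhba (-0.43), Smad6 (-0.34) and Tgfbr2 (-0.45) were no longer called in mTEC-III. Without mTEC-III replicate 2, Bmpr1b (-0.46) and Tgfbr2 (-0.30) were no longer called in mTEC-III. Of the 63 calls of genes, 10 held in at most 3 of the 8 fits with 1 library left out: Bmp2 in mTEC-IV, Bmpr1b in mTEC-III, Id2 in mTEC-III, Inhbb in mTEC-IV, Smad1 in mTEC-I, Smad2 in mTEC-IV, Smad3 in mTEC-II, Smad6 in mTEC-III, Tgfb3 in mTEC-II and Tgfbr2 in mTEC-III. All 8 such fits kept the calls of Bmpr1b, Fst, Fstl1, Id1, Id3, Id4, Inhba, Smad6, Tgfbr1 and Tgfbr2 in mTEC-I, of Bmp6 and Tgfbr2 (higher) and Bmpr1a, Id3, Smad3, Smad9 and Tgfbr1 (lower) in mTEC-IV, of Acvr1b, Acvr2a, Bmp6 and Tgfbr2 (lower) in mTEC-II and of Fstl1 (lower) in mTEC-III. Under the authors' scaling 16 of the 63 calls were lost and 1 turned round. From peaks within 10 kb of the start alone, 61 of the 63 had a value, of which 25 kept their call, 32 lost it and 4 turned round. Smad9 in mTEC-I (0.74) and in mTEC-IV (-0.49), Tgfbr1 in mTEC-IV (-0.28) and Tgfbr3 in mTEC-I (0.13) were among the 32.

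**Figure D3:**
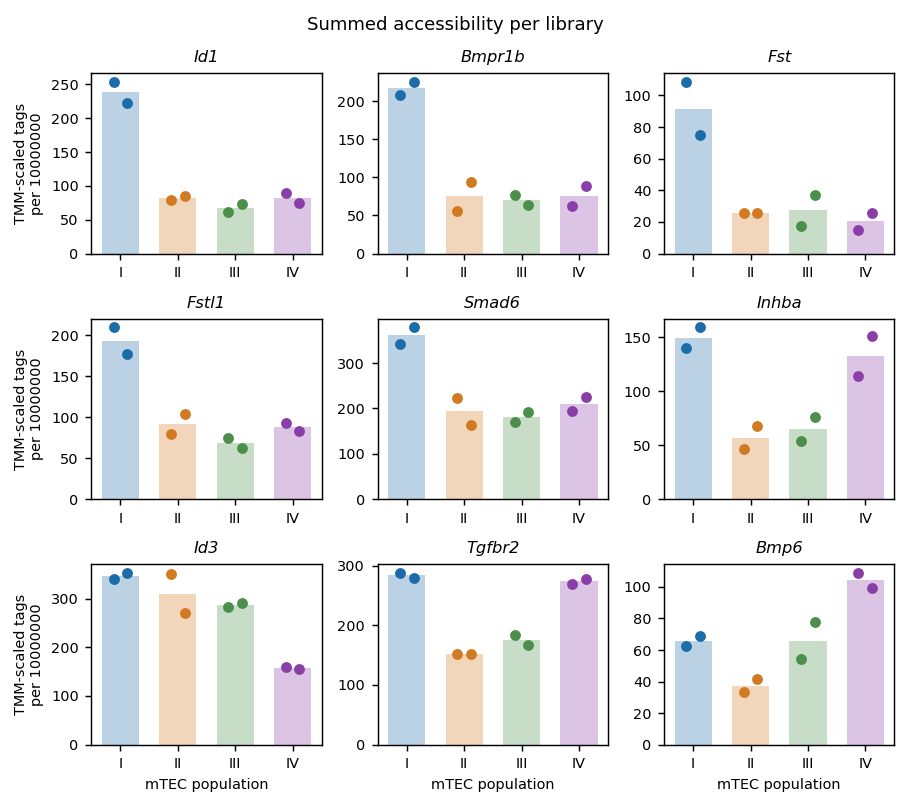
Summed accessibility of 9 genes in TMM-scaled tags per 10000000; points are the 2 libraries of each population and bars their mean. For Id1, Bmpr1b, Fst, Fstl1 and Smad6 both mTEC-I libraries stand above the other 6, Inhba and Tgfbr2 are high in mTEC-I and mTEC-IV, Id3 is low in mTEC-IV and Bmp6 is high there.

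Of the 3 genes that the name pattern found outside these roles, Tgfb1i1 and Bmp2k were higher in mTEC-I and lower in mTEC-IV. Tgfb1i1 encodes a focal adhesion protein induced by TGF-beta. It had 40.1 and 47.3 in mTEC-I, against mTEC-II at 13.8 and 26.5, mTEC-III at 27.9 and 15.5 and mTEC-IV at 17.1 and 8.04. Both mTEC-I libraries lay above the other 6, with differences of 1.32 ± 0.36 (SE, limma adjusted p = 0.0065) in mTEC-I and -1.07 ± 0.36 (SE, limma adjusted p = 0.025) in mTEC-IV. Bmp2k, a kinase gene, was higher in mTEC-I by 0.38 and lower in mTEC-IV, at -0.55. Bmp1, which encodes a procollagen protease, was not called.

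At the level of single peaks, 285 of the 362 passed the filter on low values, which a peak can pass through the population where it is high, and 77 were not tested. In mTEC-I 85 were higher and 38 lower (19.7% and 19.1% of all 59943 peaks tested). In mTEC-IV 47 were higher and 73 lower (16.5% and 19.0% of all peaks). In mTEC-II 11 were higher and 14 lower (5.21% and 3.43% of all peaks), and in mTEC-III 4 were higher and 5 lower (2.36% and 1.44% of all peaks). The mTEC-II, mTEC-III and mTEC-IV higher shares of members, 3.86%, 1.40% and 16.5%, were near or under these. Leaving out mTEC-I replicate 1 left 14 higher and 11 lower in mTEC-I, and leaving out replicate 2 left 9 and 15, with 235 member peaks tested and 2.01% and 1.77% of all peaks higher. Without mTEC-IV replicate 1 there were 2 higher and 32 lower in mTEC-IV (1.35% and 9.51% of all peaks), and without replicate 2 there were 3 and 40 (1004 and 6413 of all 53281 peaks tested). With mTEC-II replicate 1 left out, 0 member peaks were called in mTEC-II by limma (49 at an unadjusted p under 0.05), and without mTEC-III replicate 1 there were 0 higher and 1 lower in mTEC-III. Of all calls, 69.1% were higher for mTEC-I, 44.0% for mTEC-II and 44.4% for mTEC-III, against 81.6%, 58.1% and 1.25% under the authors' scaling. Under that scaling 32.6%, 7.61% and 0.719% of all peaks were higher in these populations, and 12.3%, 3.2% and 30.6% lower. Among the peaks with the largest changes, the calls of the Acvr1b and Inhbe promoter peaks, of Acvr2a at 189.9 kb, Id4 at 33.6 kb, Smad3 at 51.5 kb, Smad6 at 94.2 kb and Tgfb2 at 47.2 kb in mTEC-II, of Id1 at 1.07 kb, Id3 at 4.11 kb and Tgfbr2 at 106.5 kb in mTEC-III, and of Gdf15 at 10.4 kb in mTEC-I did not hold in every fit with 1 library left out. Of the 35 calls of leading peaks, 18 could be tested in 6 of the 8 fits. Without either library of 1 population those peaks no longer passed the filter on low values, and 14 of the 18 held in all 6. The peaks at 38.1 kb in Bmpr1b, 66.7 kb in Fst and 501.2 kb in Inhba, and the Tgfbr2 peaks at 275.7, 130.8 and 130.6 kb, were among the 14, each not tested without a library of the population where it was high.

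The mTEC-I differences reached the promoters. Of 60 tested promoter peaks, mTEC-I had 13 higher and 1 lower, against 7.53% and 9.13% of all 16185 promoter peaks tested. They belonged to Bmp6, Bmpr1b, Fst, Fstl1, Id1, Id3, Id4, Smad6 (with 2), Smad7, Tgfb1i1, Tgfbr1 and Tgfbr2, and the lower one to Inhbe. In mTEC-IV 3 were called, all lower (those of Fstl1, Id3 and Smad6), where 8.25% of all promoter peaks were higher and 4.12% lower. Of 225 tested distal peaks, mTEC-I had 72 higher and 37 lower, against 24.1% and 22.8% of all 43758 distal peaks tested. In mTEC-IV 47 distal peaks were higher and 70 lower, where 19.5% and 24.5% of all distal peaks were. The 47, at 20.9% of the 225, are near the share of all distal peaks.

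Between mTEC-I and mTEC-IV, the populations that were farthest apart at these peaks, 137 of 285 were called (42.5% of all peaks), 90 higher in mTEC-I and 47 lower (22.7% and 19.8% of all peaks). Of the 36 member genes with a called peak, 18 (beside 2801 of 10367 over all genes) had peaks in both directions, 13 only peaks higher in mTEC-I and 5 only peaks lower. Genes with many peaks had both kinds: among genes with at least 7 tested peaks that share was 16 of 19 members (84.2%), against 68.5% of 2155 such genes with a call. Tgfbr2 had 6 in each direction, Acvr2a had 5, Bmp2 had 3, and Inhba and Tgfb2 had 2 each. Smad1 had 1 higher in mTEC-I and 5 lower. Smad6 had 6 higher and 2 lower, and the 2 lower ones lay 94.9 kb and 109.8 kb from the start.

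**Figure D4:**
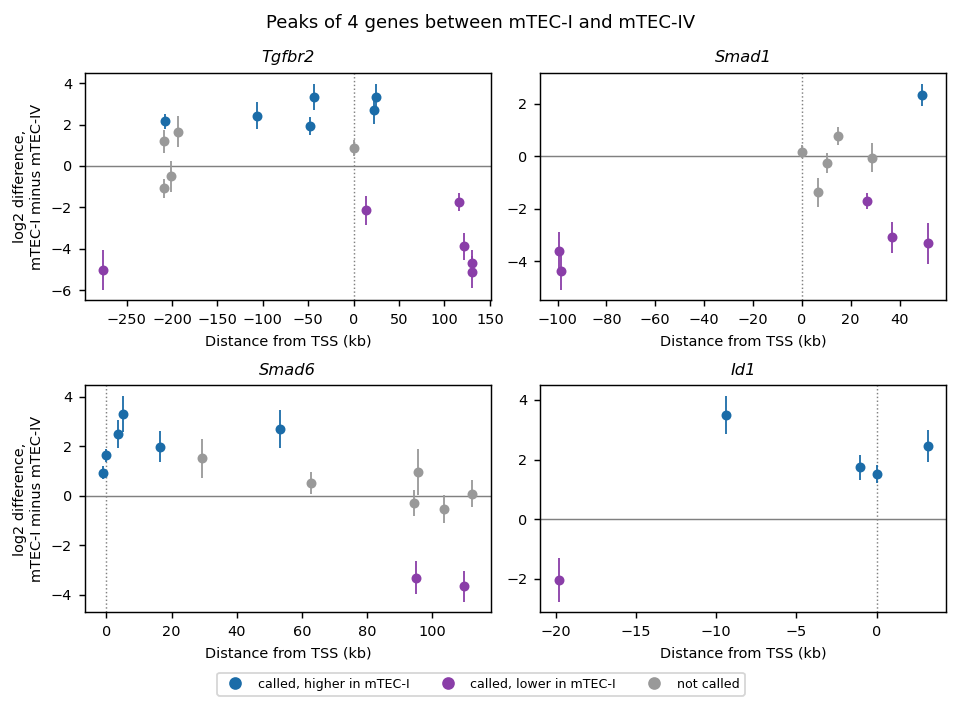
Log2 difference (mTEC-I minus mTEC-IV, with its SE) of each tested peak of Tgfbr2, Smad1, Smad6 and Id1 against its distance in kb from the start site; blue peaks were called higher in mTEC-I, purple ones lower and grey ones were not called. Tgfbr2 has 6 blue and 6 purple peaks, and Id1 has 4 blue peaks and 1 purple peak.

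In the other pairs, 58 peaks were called between mTEC-I and mTEC-II (20.1% of all peaks), 41 of them higher in mTEC-I (10.0%). Between mTEC-I and mTEC-III 72 were called (23.1% of all peaks), 48 of them higher in mTEC-I (11.1%). Between mTEC-II and mTEC-IV 92 were called (27.2% of all peaks), 50 of them higher in mTEC-II (13.9%), and between mTEC-III and mTEC-IV 56 were called (22.5%), 36 of them higher in mTEC-III (12.1%). The 1 peak between mTEC-II and mTEC-III, at Id1, stood against 0.0551% of all peaks. These comparisons share libraries and are not independent. The 4 member peaks called higher in mTEC-III were all also called higher in mTEC-II. An Id3 peak 36.8 kb upstream (chr4:135662779-135663034) had 52.4 and 28.8 in mTEC-II, against mTEC-I at 2.63 and 5.87, mTEC-III at 62.1 and 39.1 and mTEC-IV at 4.31 and 1.04. A Smad7 peak 59.0 kb from the start had 23.3 and 25.7 in mTEC-II, against mTEC-I at 2.63 and 4.27, mTEC-III at 20.1 and 30.9 and mTEC-IV at 1.43 and 3.67. The Bmp2 peak 160.1 kb upstream had 54.8 and 44.4 in mTEC-II, against mTEC-I at 21.5 and 21.4, mTEC-III at 55.4 and 42.2 and mTEC-IV at 9.34 and 4.73. The Tgfbr3 peak 5.8 kb upstream had 46.6 and 31.1 in mTEC-II, against mTEC-I at 13.1 and 8.01, mTEC-III at 40.3 and 25.7 and mTEC-IV at 5.03 and 4.73. At all 4 the libraries of mTEC-II and mTEC-III lay above those of mTEC-I and mTEC-IV, with log2 differences in mTEC-II of 2.09, 1.81, 1.30 and 1.59.

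Other genes of the pathway, outside the name pattern, were counted too. Of a list of 50 (latent TGF-beta binding proteins, activators, Smad partners, further antagonists and target genes), 47 had peaks. In mTEC-I 20 were higher and 4 lower, beside 18.3% and 16.8% of all genes. In mTEC-IV 8 were higher and 20 lower, beside 14.0% and 16.6% of all genes, so the 8 are near the share of all genes. For mTEC-II there were 2 higher and 5 lower (5.29% each way over all genes), and for mTEC-III 3 of each (4.03% and 3.35%). Their median log2 difference was 0.44 in mTEC-I and -0.31 in mTEC-IV. Tgfbi, a matrix protein gene induced by TGF-beta, had 223 and 220.3 in mTEC-I, against mTEC-II at 94.6 and 106, mTEC-III at 83.6 and 69.3 and mTEC-IV at 28.1 and 40.1, a log2 difference of 1.78 in mTEC-I and -1.80 in mTEC-IV. Ltbp1, which encodes a latent TGF-beta binding protein, had 33.6 and 32.6 in mTEC-IV, against mTEC-I at 133 and 147, mTEC-II at 143 and 136 and mTEC-III at 132 and 107 (-1.97 in mTEC-IV). Bambi, a pseudoreceptor gene, and Chrdl1, a chordin-like antagonist gene, were higher in mTEC-IV by 0.48 and 3.44. These are limma calls at an adjusted p under 0.05.

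Markers of other cell types differed along with these genes. The summed accessibility of a mesenchyme list (6 of 9 genes with a peak, with none for Col1a2, Dcn and Lum) was 312 and 316 in mTEC-I, against mTEC-II at 159 and 211, mTEC-III at 233 and 157 and mTEC-IV at 167 and 168. Col1a1, Tagln and Fbn1, 3 of the 5 tested, were higher in mTEC-I (18.3% of all genes were). An endothelium list (7 of 8 with a peak) summed to 672 and 644 in mTEC-I, against mTEC-II at 494 and 511, mTEC-III at 474 and 511 and mTEC-IV at 407 and 463. Of the 7, 5 were higher in mTEC-I, namely Cdh5, Tek, Emcn, Sox18 and Kdr, and Erg was lower (18.3% and 16.8% of all genes). In mTEC-IV Pecam1, Cdh5 and Emcn were lower and Tek was higher (16.6% and 14.0% of all genes). In mTEC-IV all 5 tuft cell markers were higher (14.0% of all genes were), with a sum of 634 and 628 in mTEC-IV, against mTEC-I at 326 and 364, mTEC-II at 209 and 242 and mTEC-III at 279 and 289. Of these markers Dclk1, at 201 and 229 in mTEC-I, was also called higher there (0.32), and Trpm5 was called lower (-1.82). Between mTEC-I and mTEC-IV Dclk1 was not called (limma adjusted p = 0.098). Among T cell markers (4 of 6 with a peak) the sum was 302 and 288 in mTEC-I, against mTEC-II at 197 and 221, mTEC-III at 139 and 158 and mTEC-IV at 159 and 167, most of it Bcl11b, which was higher in mTEC-I (1.09) and lower in mTEC-IV (-0.89). Lck was lower in mTEC-I (-3.13), and Cd3e was not called in any population. Cd4 and Lck were higher in mTEC-IV, where Cd4 had 23.3 and 17.1 in mTEC-IV, against mTEC-I at 0.904 and 0, mTEC-II at 0 and 1.56 and mTEC-III at 0 and 0. B cell markers (2 of 4 with a peak) summed to 106 and 98.4 in mTEC-IV, against mTEC-I at 46.9 and 41.8, mTEC-II at 71.5 and 62.4 and mTEC-III at 85.4 and 62.1. Cd79a was higher in mTEC-IV, and Cd79a and Cd79b were lower in mTEC-I. Myeloid and dendritic markers (5 of 7 with a peak) summed to 270.03 and 295 in mTEC-II, against mTEC-I at 172 and 205, mTEC-III at 229.97 and 229.7 and mTEC-IV at 202 and 206. Zbtb46 was higher in mTEC-II, and Cd68 (-2.50) and Flt3 (-2.36) were lower in mTEC-I. Flt3 was also called higher in mTEC-IV, at 34.3 and 32.6, but mTEC-II had similar values of 35.8 and 32.0. A sort on CD45 preceded all libraries. The part of these cell types in the results above was not tested.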

How the data were processed

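ATAC-seq libraries of 4 sorted mouse medullary thymic epithelial populations, 2 per population, were used as deposited. The deposited signal values are tags in each merged peak per 10000000 of a library's total tags, made by the authors with HOMER, per the file headers. The peaks of each library had a fragment length of 300, a false discovery rate of 0.001 and a 4-fold enrichment over the local 10000 bases, per the file headers. The submitters' processing notes name bcl2fastq 2.15.0.4, Picard 1.108, HOMER and the build mm9. The aligner is not given in the sources used here. How many animals a library holds is not given either.

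Peaks were assigned to the nearest start site by the authors' annotation. Values were scaled by TMM factors (edgeR 4.0.16), separately for peaks and for sums over a gene's peaks, and log2(value + 1) was fitted with limma-trend (limma 3.58.1, R 4.3.3), with 1 coefficient per population over all 8 libraries. Features were tested where 2 or more libraries reached 10 tags per 10000000. P-values were adjusted by Benjamini-Hochberg over all features of a comparison, and calls were made at an adjusted p under 0.05. Contrasts were each population minus the mean of the other 3, and the 6 pairs with the lower-numbered population first. All deposited values in the merged table were whole multiples of 0.5 tags, and edgeR on these recovered read ends was an alternative. The other alternatives were the authors' scaling, a pseudocount of 5, no low-value filter, a replicate block, peaks within 10 kb of the start only, and leaving out each library. The steps were tested on simulated read ends, with peaks changed in mTEC-I only and the same spread in all libraries. Calls in the other populations were not simulated.

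Member genes called in a population, up to 10 each by size of change, are given in every library, as are called peaks whose 2 libraries lie beyond the other 6, up to 6 per direction. Members and lists were chosen with earlier results of these data known. At 1 read end a value is between 0.482 and 1.39 tags per 10000000, so low peaks are coarse. A limit from 3 read ends covers counting error only.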

Additional observations from a re-analysis of the deposited data

How the results depend on the processing

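The counts depended most on single libraries and on the scaling; the cause was not tested. Leaving out each library in turn, the member peaks called higher and lower ranged over 9 to 90 and 11 to 45 for mTEC-I, 0 to 18 and 0 to 24 for mTEC-II, 0 to 4 and 1 to 22 for mTEC-III, and 2 to 51 and 32 to 83 for mTEC-IV. Member genes ranged over 12 to 26 higher and 0 to 5 lower for mTEC-I, 0 to 4 and 5 to 9 for mTEC-II, 0 to 0 and 1 to 7 for mTEC-III, and 3 to 8 and 7 to 16 for mTEC-IV. Member peaks called by pair ranged over 9 to 74 between mTEC-I and mTEC-II, 12 to 78 between mTEC-I and mTEC-III, 72 to 149 between mTEC-I and mTEC-IV, 0 to 10 between mTEC-II and mTEC-III, 27 to 101 between mTEC-II and mTEC-IV and 22 to 72 between mTEC-III and mTEC-IV. With 1 library left in a population, it is assumed to vary like the others. Of the 23 genes higher in mTEC-I, 10 kept their call without any single library, and 9 of these under every alternative: Bmpr1b, Fst, Fstl1, Id1, Id3, Id4, Smad6, Tgfbr1 and Tgfbr2. Of the 15 lower in mTEC-IV, 5 and 1 (Id3) did so.

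Under the authors' scaling 129 member peaks were higher in mTEC-I (32.6% of all peaks), 18 in mTEC-II (7.61%) and 1 in mTEC-III (0.719%). In mTEC-III 79 were lower (30.6% of all peaks). Genes lower then numbered 0 for mTEC-I (4.84% of all genes), 3 for mTEC-II (1.62%), 44 for mTEC-III (75.5%) and 7 for mTEC-IV (9.48%). In mTEC-II 1 gene was higher (5.94% of all genes). The pairs gave 156 peaks between mTEC-I and mTEC-III, 27 between mTEC-II and mTEC-III and 100 between mTEC-III and mTEC-IV. For these pairs the shares of all peaks under that scaling are not given here. A pseudocount of 5 gave 17 peaks higher and 29 lower in mTEC-II (7.45% and 7.83% of all peaks). In mTEC-III it gave 7 higher and 15 lower (4.15% and 3.81%), and in mTEC-I 4 genes lower (17.5% of all genes). edgeR gave 27 peaks higher in mTEC-II (8.9% of all peaks) and 13 higher and 3 lower in mTEC-III (5.41% and 0.844%). It gave 5 genes lower in mTEC-I (19.4% of all genes). With peaks within 10 kb of the start only, 1 gene was lower for mTEC-I, and 0 were higher and 1 lower for mTEC-II. For mTEC-III 1 was lower, and for mTEC-IV 1 was higher and 7 lower. The matching shares of all genes are not given here. Within 10 kb Inhba in mTEC-I (-0.031), Smad1 in mTEC-I (0.073), Acvr2a in mTEC-II (0.057) and Bmp6 in mTEC-IV (-0.065) turned round. Smad1 in mTEC-I did so under the authors' scaling too (0.205).

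The replicate differences at single peaks were hardly correlated between populations (-0.0112 to 0.028). Counting error at low peaks can hide a shared deviation, so whether the numbers pair the libraries is not known. With a replicate block 1 gene was lower in mTEC-I in place of 2, and the calls of Smad1 in mTEC-I, Id2 in mTEC-III and Smad2 in mTEC-IV were lost, and no other call of the 63 for single genes.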
